A study of Mus musculus with 8 samples.

Results

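The levels of 7 genes that mark fibroblasts of the brain's vessels and meninges were described in cultured mouse brain pericytes with and without transforming growth factor β1 (TGF-β1). The 7 genes were *Ptgds*, *Apod*, *Scara5*, *Islr*, *Dpep1*, *Pi16* and *Slc6a13*, out of 54532 genes in the deposited count files, and each symbol matched 1 Ensembl identifier. They were chosen by name as fibroblast markers after results from the same 8 cultures were known, in which *Scara5* and *Ptgds* were among the genes that fell most with TGF-β1. The difference between the treatment groups was therefore among the values that chose them, and it is given here as a description with no test. The cultures were wild-type (WT) primary pericyte cultures from mouse brain, 4 with vehicle and 4 with TGF-β1 at 5 μg/mL, and RNA was taken at 48 h. The dose is printed as the study's methods give it, is high for this cytokine, and could not be checked from the count files. According to the study's methods the brains were digested with papain and the cells expanded on collagen in an endothelial growth medium before a pericyte medium, so the cells that grew out of a whole-brain digest are the model. The labels number the vehicle cultures 1 to 4 and the TGF-β1 cultures 5 to 8. Nothing in the labels ties a vehicle culture to a TGF-β1 culture, although the methods describe isolates that received both, so the groups were compared as unpaired.

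Brain fibroblasts lie in the meninges and around the larger vessels, in the space between the vessel wall and the brain tissue, where they make collagens and other matrix proteins. Pericytes lie inside the basement membrane of capillaries, and both cell types carry the PDGF receptor *Pdgfrb*. Fibroblasts of this kind are known for secreted lipid carriers (*Ptgds*, *Apod*), for transporters and surface receptors at the barrier with the cerebrospinal fluid (*Slc6a13*, *Scara5*), and for markers shared with the adventitia of vessels elsewhere (*Pi16*). TGF-β is known to signal through SMAD proteins and to drive fibroblasts toward matrix production.

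The 8 libraries held between 45255235 and 47651397 counts, so that 3 counts, taken as the detection floor, corresponded to 0.0631 to 0.0658 counts per 1000000 counts of the library (CPM). Of counts between 1 and 20, between 68.5% and 70.2% were even numbers in each library, so the number of independent fragments may be lower than the counts. Of the 22544 genes that passed the filter on low counts, 4718 (20.9%) were higher and 4586 (20.3%) lower with TGF-β1 (edgeR quasi-likelihood test, Benjamini-Hochberg adjusted p under 0.05, 4 against 4 cultures). In 4229 of them (18.8%) the highest TGF-β1 culture lay under the lowest vehicle culture, and the median log2 fold change over all genes tested was -0.01. These p-values weigh the difference between the groups against the spread between cultures of the same group, for these 8 cultures only. The study's methods describe independent isolates, but the labels do not say which culture came from which isolate. In bulk RNA, fewer cells of a type and less RNA per cell cannot be told apart.

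The region around the transcription start is shown for the pair of secreted lipocalins that fell, *Ptgds* and *Apod*, and for *Islr*, an abundant gene whose groups overlapped, so that the letters can be read beside the values below. The sequences are from RefSeq on GRCm38.p6, run 5′ to 3′ on the strand of the gene, and cover 250 bases before to 50 bases after the annotated start. Capitals mark each match, on either strand, to the letters CAGAC or GGCGC (bound by SMAD proteins), TGANTCA (bound by AP-1), TAAACA (bound by forkhead factors) or TATAAA.
Ptgds, chr2:25469700-25469999, minus strand: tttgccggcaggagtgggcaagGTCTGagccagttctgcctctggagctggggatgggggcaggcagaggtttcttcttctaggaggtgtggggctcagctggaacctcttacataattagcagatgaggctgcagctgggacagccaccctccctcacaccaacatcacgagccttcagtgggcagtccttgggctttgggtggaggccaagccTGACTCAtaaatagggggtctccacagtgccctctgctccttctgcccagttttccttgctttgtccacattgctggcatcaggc
Apod, chr16:31314759-31315058, minus strand: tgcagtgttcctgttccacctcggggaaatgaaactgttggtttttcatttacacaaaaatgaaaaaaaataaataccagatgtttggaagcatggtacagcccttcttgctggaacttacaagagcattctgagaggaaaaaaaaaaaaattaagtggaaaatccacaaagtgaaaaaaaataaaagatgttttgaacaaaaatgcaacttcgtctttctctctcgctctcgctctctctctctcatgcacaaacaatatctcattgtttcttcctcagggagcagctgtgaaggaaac
Islr, chr9:58158505-58158804, minus strand: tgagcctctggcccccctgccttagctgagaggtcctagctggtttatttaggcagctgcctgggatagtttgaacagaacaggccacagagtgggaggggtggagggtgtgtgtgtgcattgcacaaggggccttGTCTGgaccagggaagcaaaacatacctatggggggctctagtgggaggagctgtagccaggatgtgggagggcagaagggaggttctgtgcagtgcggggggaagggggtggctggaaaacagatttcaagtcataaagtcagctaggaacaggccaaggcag
The *Ptgds* window held CAGAC on the opposite strand, at position -228 from the start (position 0), and TGANTCA at position -35. The *Apod* window held none of the 5 motifs, and its GC content of 37.3% was below the 57.7% of *Ptgds* and the 57% of *Islr*. The *Islr* window held CAGAC on the opposite strand at position -114. Among all 32851 promoter windows of this length, 49.6% held CAGAC, 36.9% GGCGC, 7.81% TGANTCA, 13.4% TAAACA and 13.6% TATAAA on either strand. The windows of *Dpep1* and *Pi16* also held CAGAC, at positions -60 and -46, and that of *Pi16* held TAAACA and overlapping matches to GGCGC as well. Of 3 windows listed for *Slc6a13*, 2 held CAGAC, with 2 matches each. Of the 7 genes, 6 had a promoter entry, all but *Scara5*. These matches are descriptions of letters in a window and were not related to the expression values.

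The 7 genes split into those whose levels fell several-fold with TGF-β1 and those whose groups overlapped. *Ptgds*, *Apod* and *Scara5* fell between 5.42-fold and 12.5-fold, and their groups were fully separate. *Islr*, *Dpep1* and *Pi16* differed by less than the spread between cultures, and *Slc6a13* was at the edge of detection. In all, 6 of the 7 passed the filter on low counts, with a median log2 fold change of -1.23. The groups did not overlap for 3 of these 6, or for 4 of the 7 once *Slc6a13* is counted, beside 18.8% of all genes tested, and nothing is read from that share since the genes were chosen with the difference known.

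**Figure D1:**
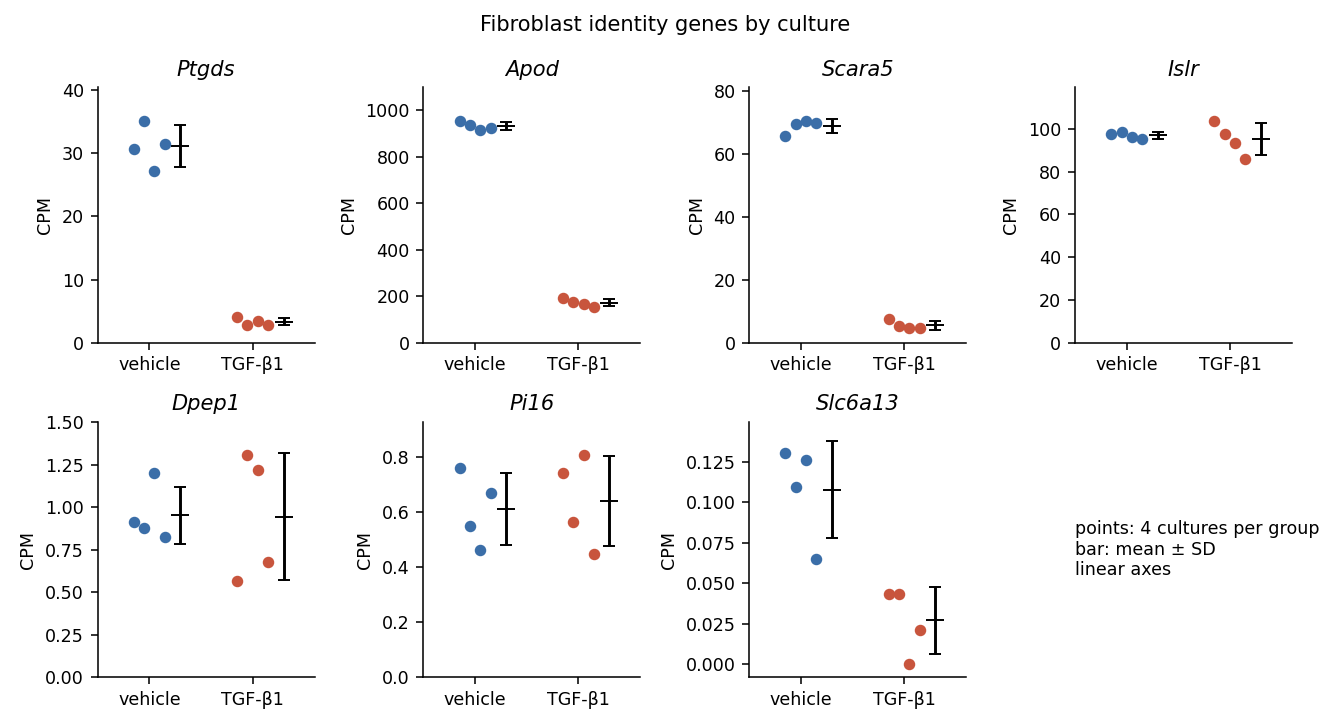
Level of each of the 7 genes in CPM (vertical axis, linear, a separate scale for each gene) in the 4 vehicle (blue) and 4 TGF-β1 (red) cultures, shown in the order of their culture numbers, with the mean ± SD beside them. The TGF-β1 points of *Ptgds*, *Apod* and *Scara5* lie far below the vehicle points, those of *Islr*, *Dpep1* and *Pi16* lie among them, and *Slc6a13* stays under 0.14 CPM throughout.

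*Ptgds* (ENSMUSG00000015090, GRCm38 chr2:25466709-25470046, minus strand) encodes the lipocalin-type prostaglandin D synthase, which makes prostaglandin D and also carries retinoids and other lipids in the cerebrospinal fluid. Vehicle cultures 1 to 4 had 30.7, 35.2, 27.2 and 31.5 CPM, and TGF-β1 cultures 5 to 8 had 3.99, 2.88, 3.51 and 2.81 CPM. The lowest vehicle culture was 6.82 times the highest TGF-β1 culture. Within the groups the coefficient of variation was 10.5% with vehicle and 17.05% with TGF-β1. The mean fell from 31.2 ± 3.26 to 3.30 ± 0.562 CPM (SD, n = 4 each), which left 10.6% of the vehicle level, a log2 fold change of -3.24 (SE 0.09). The raw counts behind these values were 1294 to 1604 with vehicle and 132 to 183 with TGF-β1. By log2 fold change it was the 8th lowest of the genes tested, and the 5th lowest of those with a mean of at least 1 CPM.

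*Apod* (ENSMUSG00000022548, chr16:31296192-31314808, minus strand) encodes apolipoprotein D, a secreted lipocalin that binds arachidonic acid and sterols. Its vehicle cultures had 954.8, 937, 913.2 and 924.8 CPM, against 190.6, 175.4, 168 and 154.4 CPM with TGF-β1. The vehicle cultures differed from each other by a few percent (coefficient of variation 1.91%), the TGF-β1 cultures by more (8.76%), and the groups were far apart. The mean went from 932.4 ± 17.8 to 172.1 ± 15.1 CPM (SD, n = 4 each), 5.42-fold lower, with a log2 fold change of -2.44 (SE 0.06). *Apod* remained an abundant RNA. Per kilobase of exon it stood at or above 99.9% of all genes tested in the vehicle cultures and 97.8% in the TGF-β1 cultures.

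*Scara5* (ENSMUSG00000022032, chr14:65666403-65764826, plus strand) encodes a class A scavenger receptor that takes up ferritin. With vehicle the 4 cultures had 65.5, 69.4, 70.5 and 69.9 CPM, and with TGF-β1 they had 7.55, 5.18, 4.67 and 4.70 CPM. Culture 5 was the highest of the TGF-β1 cultures and the other 3 were nearly level, yet even culture 5 was 8.68-fold below the lowest vehicle culture. The mean dropped from 68.8 ± 2.25 to 5.53 ± 1.37 CPM (SD, n = 4 each), to 8.03% of the vehicle level, a log2 fold change of -3.64 (SE 0.12). This was the 4th lowest log2 fold change of all genes tested and the 2nd lowest of those with a mean of at least 1 CPM.

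*Islr* (ENSMUSG00000037206, chr9:58156268-58204306, minus strand) encodes a membrane protein with leucine-rich repeats and an immunoglobulin domain, also called meflin, that marks mesenchymal stromal cells and fibroblasts. Vehicle cultures had 97.5, 98.5, 96.0 and 95.4 CPM, and TGF-β1 cultures had 103.8, 97.7, 93.4 and 86.0 CPM. The highest and the lowest of all 8 cultures were both TGF-β1 cultures, numbers 5 and 8, with the vehicle cultures between them. The means of 96.8 ± 1.42 and 95.2 ± 7.47 CPM (SD, n = 4 each) gave a log2 fold change of -0.02 (SE 0.04), so that 98.3% of the vehicle level was left. Of its exonic bases, 6.74% overlap *Islr2* on the same strand, and 5.05% of its 50-base words also occur in *Islr2*. *Islr2* itself was at 0.573 CPM with vehicle and 1.53 CPM with TGF-β1.

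*Dpep1* (ENSMUSG00000019278, chr8:123186242-123201812, plus strand) encodes a membrane dipeptidase that cleaves cysteinyl-glycine and leukotriene D. It was near the low end of the tested genes, with 42, 40, 57 and 38 counts in the vehicle cultures and 26, 60, 56 and 32 in the TGF-β1 cultures. The TGF-β1 cultures fell on both sides of the vehicle range, in CPM, with 5 and 8 below it and 6 and 7 above it. The means were 0.953 ± 0.168 and 0.944 ± 0.374 CPM (SD, n = 4 each), with a log2 fold change of -0.02 (SE 0.24).

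*Pi16* (ENSMUSG00000024011, chr17:29317680-29330593, plus strand) encodes a membrane-anchored protein of the CAP family and marks fibroblasts of the adventitia in many tissues. The vehicle cultures had 35, 25, 22 and 31 counts, and the TGF-β1 cultures had 34, 26, 37 and 21. The groups overlapped throughout, at 0.611 ± 0.131 and 0.641 ± 0.165 CPM (SD, n = 4 each), and the log2 fold change was 0.07 (SE 0.27). At this depth a difference smaller than the spread of these low counts was not detectable. In addition, 3.88% of its 50-base words occur in other genes, and 3.49% of its exonic bases overlap a transcript on the other strand.

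*Slc6a13* (ENSMUSG00000030108, chr6:121300227-121337733, plus strand) encodes a plasma membrane transporter of GABA and taurine that is known from the leptomeninges. It had 6, 5, 6 and 3 counts in the vehicle cultures and 2, 2, 0 and 1 counts in the TGF-β1 cultures. All TGF-β1 cultures were below the floor of 3 counts and no vehicle culture was more than 3 counts above it, so no fold is given, and the gene did not pass the filter. The means were 0.108 ± 0.0299 and 0.0271 ± 0.0209 CPM (SD, n = 4 each), counting error included.

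Per kilobase of exon, which allows genes to be compared, the order of the 7 was the same in both groups. From the highest level to the lowest it ran *Apod*, *Islr*, *Ptgds*, *Scara5*, *Dpep1*, *Pi16* and *Slc6a13*, and the ranges of neighbours over the 4 cultures were separate at each of the 6 steps in both groups. What changed was the spacing. With vehicle, *Apod* was at 361.8 CPM per kilobase and *Islr* at 36.0, a ratio of 10.04, and with TGF-β1 they were at 66.8 and 35.5, a ratio of 1.88. *Ptgds* came just under *Islr* with vehicle, at 18.9 CPM per kilobase and a ratio of 1.91, and 17.7-fold under it with TGF-β1, at 2.00. *Scara5* was 29.5-fold above *Dpep1* with vehicle (11.3 and 0.383 CPM per kilobase) and 2.39-fold above it with TGF-β1 (0.907 and 0.380). The CPM of the 7 genes together summed to between 1109 and 1150 in the vehicle cultures and between 249.1 and 307.3 in the TGF-β1 cultures, most of it *Apod*.

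**Figure D2:**
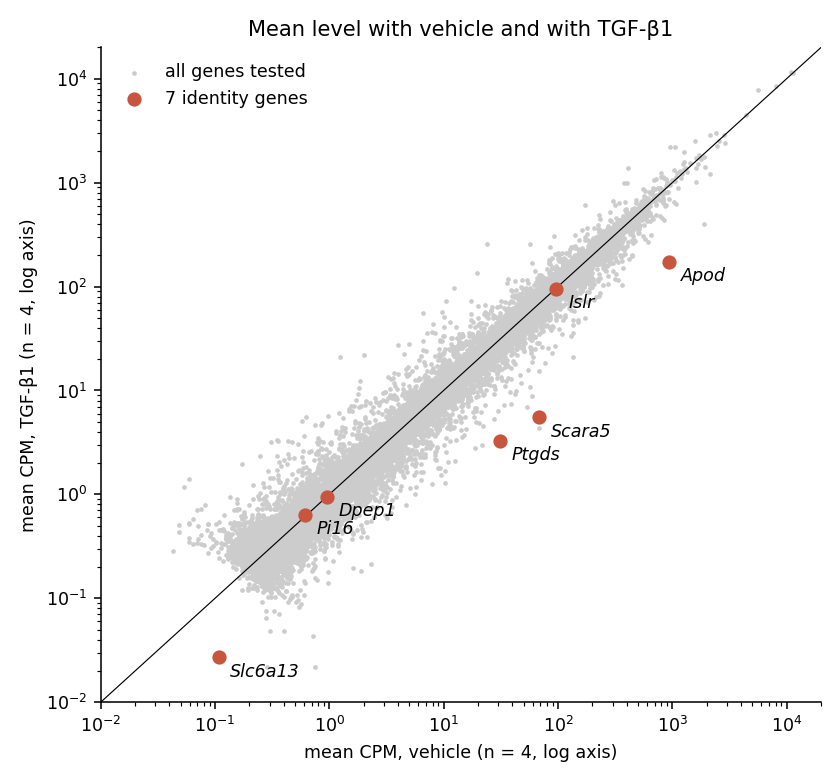
Mean CPM with vehicle (horizontal log axis) and with TGF-β1 (vertical log axis), 4 cultures each, for all genes tested (grey) and the 7 fibroblast genes (red). The line marks equal levels. *Apod*, *Scara5* and *Ptgds* lie well below it, and *Islr*, *Dpep1* and *Pi16* lie on it over a range of levels from under 1 to nearly 100 CPM. *Slc6a13* lies at the lower left at under 0.11 CPM, and genes with a mean of 0 in either group are not drawn.

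The name of the gene group was checked against the levels. The vehicle cultures expressed 4 of the 7 genes at 11.3 CPM per kilobase or more, while *Dpep1*, *Pi16* and *Slc6a13* were at 0.383 or less. Other defining fibroblast genes were chosen for this check after their values were seen. *Col1a1* and *Col1a2*, which encode the chains of type I collagen, were at 1587 and 2121 CPM with vehicle, and the fibroblast receptor gene *Pdgfra* was at 62.5 CPM. *Dcn*, the proteoglycan decorin, was at 52.1 CPM, and *Lum*, the related proteoglycan lumican, was at 0.0865 CPM. Of the genes that define brain pericytes in tissue, *Pdgfrb* and *Notch3* were at 202.1 and 88.4 CPM, *Cspg4* (NG2), *Anpep* (CD13) and *Ifitm1* were at 82.9, 40.5 and 188.5 CPM, *Rgs5* was at 8.62 CPM, and *Kcnj8*, *Vtn* and *Abcc9* were at 0.0108, 0.0864 and 0.112 CPM. The other genes of the pericyte list lay between 0.278 CPM (*Higd1b*) and 5.25 CPM (*Mcam*) with vehicle, with *Des*, desmin, at 0.685 CPM. The cultures labelled pericytes held RNA of some fibroblast and some pericyte markers, and little or none of others. The perivascular, meningeal, adventitial and pericyte lists each had 1 or 2 members with a mean under 0.1 CPM.

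**Figure D3:**
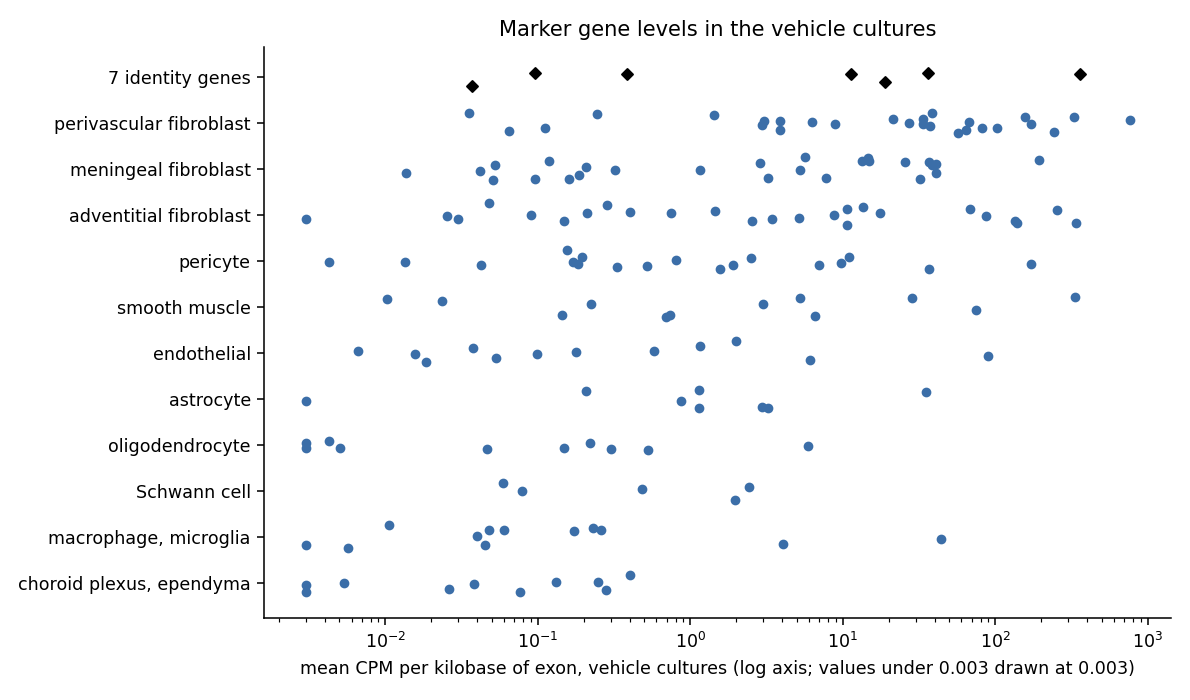
Mean level in the 4 vehicle cultures, in CPM per kilobase of exon (horizontal log axis, values under 0.003 drawn at 0.003), for the 7 genes (black) and for lists of marker genes of 11 cell types (blue), 1 point for each gene. Each of the 3 fibroblast lists reaches from under 0.04 to over 190 CPM per kilobase, while the choroid plexus and ependyma list stays under 1.

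Further fibroblast genes were taken from lists of marker genes written with earlier results of these data known. Of 26 tested genes of the perivascular fibroblast list, 11 were higher and 10 lower with TGF-β1, beside 20.9% and 20.3% of all genes, and the median log2 fold change was 0.04. That median was -0.01 without vehicle culture 4 and -0.06 without TGF-β1 culture 6, so its sign depended on which cultures were included. *Fbln2*, the elastic fibre protein fibulin, was at 394.9, 402.5, 422.5 and 417.5 CPM with vehicle and at 1351, 1375, 1376 and 1382 CPM with TGF-β1, a tight rise (log2 fold change 1.74, edgeR adjusted p = 2.27e-42). *Col1a1* rose from 1587 to 2525 CPM (0.67, edgeR adjusted p = 3.35e-28) and *Spp1*, the matrix phosphoprotein osteopontin, from 1257 to 1967 CPM (0.65, edgeR adjusted p = 2.74e-27). *Mgp*, an inhibitor of calcification, rose from 390.9 to 520.7 CPM (0.41, edgeR adjusted p = 5.91e-19).

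Other members of the perivascular list fell. *Ogn*, the small proteoglycan osteoglycin, was at 172.3, 170.1, 173.8 and 175.5 CPM with vehicle and at 53.9, 48.4, 50.2 and 45.9 CPM with TGF-β1, with no overlap (log2 fold change -1.80, edgeR adjusted p = 2.89e-33). *Fbln1*, another fibulin, fell from 446.4 to 196.0 CPM (-1.19, edgeR adjusted p = 3.30e-20), opposite to *Fbln2*. *Pdgfra* did not pass the test, at 62.5 and 63.0 CPM (0.01, edgeR adjusted p = 0.820). The 27 genes of the list together summed to between 8938 and 9242 CPM with vehicle and between 12380 and 12850 CPM with TGF-β1. This sum follows its most abundant genes, such as *Col1a1*, *Spp1* and *Col1a2* (2121 and 2852 CPM), although 10 of the 26 tested genes were lower. The 7 genes described here summed to less with TGF-β1, a sum that was mostly *Apod*.

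Of 23 tested genes of the meningeal fibroblast list, 4 (17.4%) were higher and 11 (47.8%) lower, beside 20.9% and 20.3% of all genes, with a median log2 fold change of -0.16. The median was -0.23 when only genes with at least 10 counts in every culture were kept and -0.30 without TGF-β1 culture 5. The largest changes were those of *Dkk2*, a Wnt modulator, which rose from 0.156 to 0.898 CPM (2.50, edgeR adjusted p = 5.18e-08), *Igfbp2*, an IGF carrier, which fell from 2.13 to 0.543 CPM (-1.97, edgeR adjusted p = 8.64e-11), and *Slc22a8*, an organic anion transporter of the meninges, which fell from 12.6 to 5.07 CPM (-1.32, edgeR adjusted p = 1.02e-18). The first pair are low-abundance genes, while a regulator and a calcium-binding protein were among the list's most abundant members. *Foxc1*, a forkhead factor needed to form the meninges, fell from 238.7 to 193.2 CPM (-0.31, edgeR adjusted p = 1.27e-10). *S100a6* did not pass, at 264.7 and 272.3 CPM (0.04, edgeR adjusted p = 0.220). Further transcription factor genes of the list were noticed after their values were seen. *Foxc2* (-0.77), *Foxd1* (-0.85), *Zic1* (-0.16), *Zic4* (-0.41) and *Tbx18* (-0.42) were all lower in log2 fold change, each with an edgeR adjusted p of 1.52e-06 or less.

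In the adventitial fibroblast list, 14 of 23 tested genes (60.9%) were lower and 5 (21.7%) higher, beside 20.3% and 20.9% of all genes, and the median log2 fold change was -0.46. *Tnxb*, the matrix protein tenascin X, had 129.9, 141.0, 120.4 and 126.3 CPM with vehicle and 36.0, 31.3, 36.9 and 28.6 CPM with TGF-β1, groups that lay far apart (-1.96, edgeR adjusted p = 2.42e-06). Its most abundant members fell as well. *Gsn*, the actin-severing protein gelsolin, went from 1067 to 615.9 CPM (-0.79, edgeR adjusted p = 1.39e-30), *Efemp1*, a fibulin, from 515.8 to 358.8 CPM (-0.52, edgeR adjusted p = 1.02e-12), and *Ly6a*, a surface marker of stromal progenitors, from 168.2 to 99.4 CPM (-0.76, edgeR adjusted p = 0.000175). Among those that rose were *Mfap5*, a microfibril protein, from 0.324 to 1.45 CPM (2.16, edgeR adjusted p = 4.21e-10) and *Pcolce2*, a collagen processing protein, from 0.689 to 1.52 CPM (1.14, edgeR adjusted p = 4.51e-05).

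The list of genes of activated fibroblasts went the other way, with 12 of 14 tested genes (85.7%) higher, 1 (7.14%) lower, beside 20.9% and 20.3% of all genes, and a median log2 fold change of 1.02. *Tnc*, tenascin C, had 16.6, 17.0, 17.4 and 18.2 CPM with vehicle and 62.4, 78.9, 74.0 and 77.8 CPM with TGF-β1, groups that lay far apart (2.08, edgeR adjusted p = 5.03e-10). *Timp1*, a metalloproteinase inhibitor, rose from 94.7 to 207.2 CPM (1.13, edgeR adjusted p = 7.21e-32), and *Fn1*, fibronectin, from 5598 to 7852 CPM (0.49, edgeR adjusted p = 3.53e-22). The gene that fell was *Tgfbi*, a secreted matrix protein first found as a TGF-β-induced gene, which fell from 230.0 to 81.2 CPM (-1.50, edgeR adjusted p = 9.69e-06). In the pericyte list 6 of 15 tested genes (40%) were higher and 4 (26.7%) lower, beside the same background, with a median of -0.04. *Pdgfrb* rose from 202.1 to 291.4 CPM (0.53, edgeR adjusted p = 1.26e-22) and *Rgs5*, a regulator of G protein signalling, fell from 8.62 to 2.13 CPM (-2.02, edgeR adjusted p = 7.63e-21). *Notch3* did not pass, at 88.4 and 85.9 CPM (-0.04, edgeR adjusted p = 0.301).

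**Figure D4:**
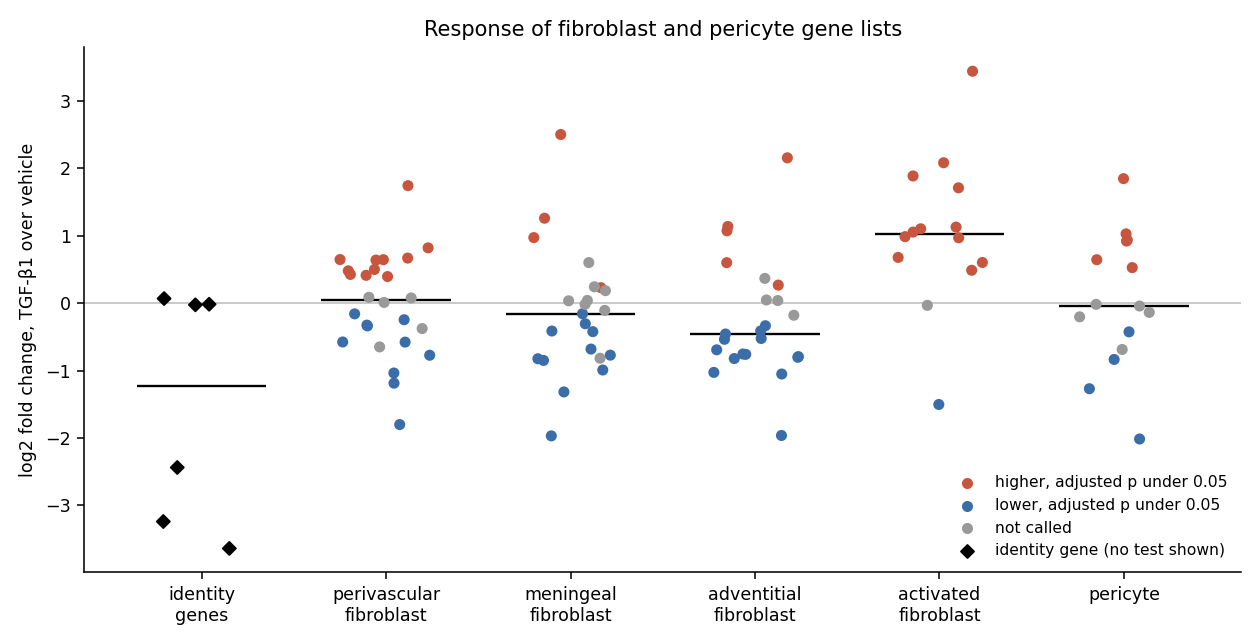
Log2 fold change of TGF-β1 over vehicle (vertical axis) for the 6 tested genes of the group described here (black diamonds, no test shown) and for each tested gene of 5 marker lists (circles, red for higher, blue for lower and grey for not called at an adjusted p of 0.05). Horizontal bars mark medians, from -1.23 for the 6 genes to 1.02 for the activated fibroblast list. The median of the 6 genes falls in the gap between *Apod* (-2.44) and *Islr* (-0.02), so none of them lies near it.

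Selected relatives of the 7 genes by protein family were listed beside them. The lists do not hold whole families. Beside their counts, 20.9% of all genes tested were higher and 20.3% lower with TGF-β1. The same background holds for the prostaglandin D list below, and nothing is read from counts of so few genes. Of 3 tested lipocalin genes, 2 were lower. *Lcn2*, the iron-siderophore carrier, had 45.0, 44.3, 38.8 and 40.8 CPM with vehicle and 35.7, 36.5, 34.02 and 31.1 CPM with TGF-β1, a small fall without overlap (-0.30, edgeR adjusted p = 4.96e-06). *C8g*, a complement subunit, fell from 3.61 to 2.36 CPM (-0.61, edgeR adjusted p = 0.000130), and *Apom*, a carrier of sphingosine phosphate, was at 2.23 and 1.80 CPM (-0.31, edgeR adjusted p = 0.104). The 4 other lipocalin genes on the list did not pass the filter.

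Of the scavenger receptor relatives of *Scara5*, 3 of 4 tested genes were lower. *Scara3*, which responds to oxidative stress, fell from 188.9 to 141.5 CPM (-0.42, edgeR adjusted p = 1.32e-17), and the collectin *Colec12* fell from 574.9 to 497.5 CPM (-0.21, edgeR adjusted p = 2.75e-10). *Ssc5d* fell from 84.6 to 76.4 CPM (-0.15, edgeR adjusted p = 0.00442), with overlapping groups. *Cd163*, a macrophage receptor, was at 0.475 and 0.309 CPM and did not pass (-0.62, edgeR adjusted p = 0.162).

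Of 5 tested transporters of the *Slc6a13* family list, 3 were higher and 2 lower. *Slc6a6*, the taurine transporter, had 350.8, 357.4, 338.7 and 349.3 CPM with vehicle and 245.7, 243.8, 256.5 and 244.0 CPM with TGF-β1 (-0.50, edgeR adjusted p = 1.09e-21). *Slc6a8*, the creatine transporter, rose from 275.3 to 380.3 CPM (0.47, edgeR adjusted p = 1.30e-21). The amino acid transporters *Slc6a17* and *Slc6a15* rose from 2.01 to 4.09 CPM (1.02) and from 0.831 to 1.43 CPM (0.78), with edgeR adjusted p-values of 2.45e-08 and 0.00134. *Slc6a9*, a glycine transporter, was lower at 19.4 and 17.4 CPM (-0.16, edgeR adjusted p = 0.0241), a call that was lost with DESeq2 (adjusted p = 0.0694) and without vehicle culture 1, 2 or 4 or TGF-β1 culture 5 or 6 (edgeR adjusted p from 0.0562 to 0.103). *Slc6a12*, the betaine and GABA transporter that shares 0.14% of the 50-base words of *Slc6a13*, did not pass the filter, with 0.0862 CPM with vehicle and 0.444 CPM with TGF-β1.

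Among peptidases and CAP proteins, *Anpep*, the aminopeptidase CD13, fell from 40.5 to 30.1 CPM (-0.43, edgeR adjusted p = 5.13e-09), and the cytosolic dipeptidase *Cndp2* was level at 164.8 and 162.6 CPM (-0.02, edgeR adjusted p = 0.639). Of the CAP genes related to *Pi16*, *Crispld2*, a secreted lipopolysaccharide-binding protein, rose from 1.71 to 8.09 CPM (2.24, edgeR adjusted p = 6.56e-21), *Pi15* from 0.346 to 0.722 CPM (1.06, edgeR adjusted p = 0.00330) and *Glipr2* from 73.8 to 88.9 CPM (0.27, edgeR adjusted p = 2.09e-08). *Crispld1* fell from 3.24 to 1.79 CPM (-0.86, edgeR adjusted p = 1.21e-06), and *Glipr1* was at 0.555 and 0.655 CPM (0.24, edgeR adjusted p = 0.545). *R3hdml* did not pass the filter, at 0.416 and 0.0758 CPM with groups that did not overlap. Of the leucine-rich repeat relatives of *Islr*, *Islr2* rose (1.41, edgeR adjusted p = 5.10e-07), as did *Lrig1* and *Lrig3*, which restrain and modulate growth factor receptors, from 80.2 to 146.5 CPM (0.87, edgeR adjusted p = 5.68e-20) and from 51.1 to 67.8 CPM (0.41, edgeR adjusted p = 1.06e-14). *Lrig2* did not pass, at 49.8 and 49.5 CPM (-0.01, edgeR adjusted p = 0.883).

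Of 6 tested genes of a list for prostaglandin D synthesis, its signalling and retinoid uptake, 3 were higher and 1 lower. The cyclooxygenases, which make the substrate of *Ptgds*, rose. *Ptgs2* had 98.3, 96.2, 105.0 and 98.1 CPM with vehicle and 189.1, 212.4, 193.9 and 199.1 CPM with TGF-β1 (1.00, edgeR adjusted p = 8.86e-24), and *Ptgs1* rose from 77.2 to 119.1 CPM (0.63, edgeR adjusted p = 1.21e-21). *Hpgds*, the other prostaglandin D synthase, was at 3.44 and 3.45 CPM (0.01, edgeR adjusted p = 0.979). Of the receptors, *Ptgdr* fell from 0.900 to 0.287 CPM (-1.64, edgeR adjusted p = 6.08e-06) and *Ptgdr2* was at 0.497 and 0.565 CPM (0.18, edgeR adjusted p = 0.686). *Stra6*, a retinol uptake receptor listed for the retinoid-carrying role of *Ptgds*, rose from 1.86 to 12.4 CPM (2.74, edgeR adjusted p = 1.68e-21).

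Deviations from the group mean of log2(CPM + 0.5) were compared for *Ptgds*, *Apod*, *Scara5* and *Islr*, which had at least 100 counts in every culture. Over the 8 cultures all 6 pairs correlated positively (Pearson r from 0.576 to 0.983, median 0.723), the highest being *Apod* with *Islr*. These values describe 8 points that share library and depth, and for *Apod*, *Islr* and *Scara5* TGF-β1 cultures 5 and 8 lay among the farthest from the group mean. Among the vehicle cultures alone, *Ptgds* deviated by 0.18 in culture 2 and -0.19 in culture 3, and *Apod*, *Scara5* and *Islr* by at most 0.07 in size. *Apod* and *Islr* had the same sign in each vehicle culture, whereas *Scara5* was lowest (-0.07) in culture 1, where *Apod* was highest (0.03). Culture 5 was above its group mean in 6 of the 7 genes and culture 8 in 0 of 7. In culture 5, *Scara5* was 0.44 above the group mean on the log2 scale, *Ptgds* 0.25, *Apod* 0.15 and *Islr* 0.13. In culture 8, *Ptgds* and *Scara5* deviated by -0.19, *Apod* by -0.15 and *Islr* by -0.14. The same cultures were at the ends of the TGF-β1 group for *Tgfbi*, which had 93.7, 75.3, 85.0 and 70.7 CPM in cultures 5 to 8. Whether these moved together for a shared reason was not tested. Without culture 5 the log2 fold changes of *Ptgds*, *Apod* and *Scara5* were -3.35, -2.49 and -3.83, and without culture 8 they were -3.16, -2.38 and -3.56.

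**Figure D5:**
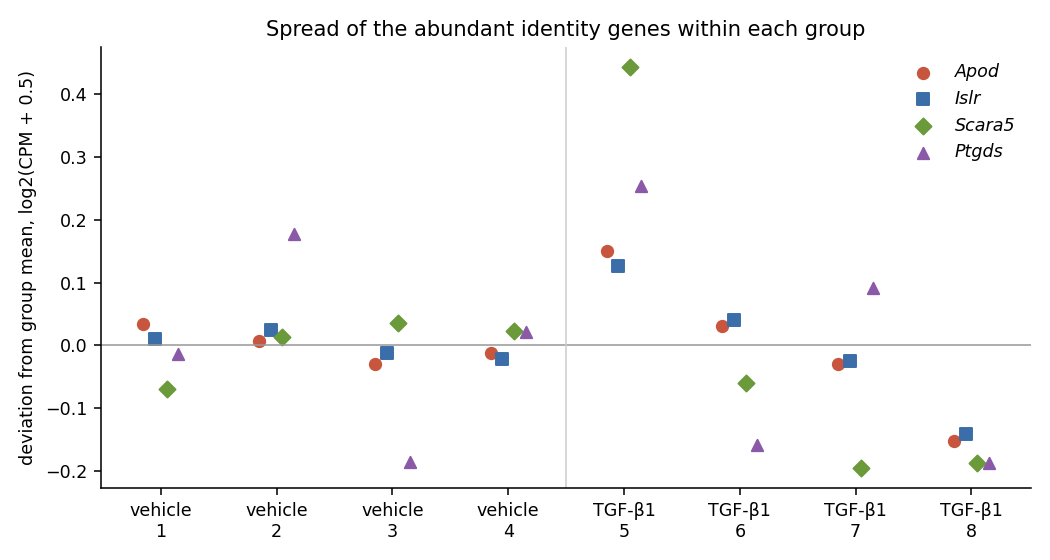
Deviation of *Apod*, *Islr*, *Scara5* and *Ptgds* from their group mean (vertical axis, log2(CPM + 0.5)) in each of the 8 cultures (horizontal axis). In TGF-β1 culture 5 all 4 genes lie above 0 and in culture 8 all 4 lie below 0, while in the vehicle cultures only *Ptgds* moves by more than 0.1.

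The genes whose pattern was most like that of the group were found by correlating log2 CPM over the 8 cultures with the mean of the standardised profiles of the 7, among 16490 genes with a mean of at least 1 CPM. The 5 most alike were *Gga1* (r = 0.998), *Stag2* (0.993), *Vill* (0.991), *Nfix* (0.989) and *Mgrn1* (0.988), and 141 genes had an r over 0.95. Their changes were small. *Gga1*, a clathrin adaptor, was at 111.1 ± 0.965 CPM with vehicle and 103.5 ± 3.14 CPM with TGF-β1 (SD, n = 4 each), and *Nfix*, a transcription factor, was at 402.5 ± 2.56 and 369.1 ± 12.3 CPM. *Stag2*, a cohesin subunit, was at 183.8 and 175.1 CPM, *Vill*, related to villin, at 20.3 and 17.1 CPM, and the ubiquitin ligase *Mgrn1* at 110.3 and 105.0 CPM. The mean profile weighs each gene's shape and not its size, and all 8 cultures carry the treatment difference. The genes of the group themselves had an r of 0.899 (*Ptgds*), 0.905 (*Apod*), 0.896 (*Scara5*), 0.850 (*Slc6a13*), 0.560 (*Islr*), 0.237 (*Dpep1*) and 0.222 (*Pi16*) with that mean.

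Markers of other cells that a brain digest could hold were measured beside the falls of *Ptgds*, *Apod* and *Scara5*. Of 12 endothelial markers, 2 of 7 tested were higher (28.6%) and 1 lower (14.3%), beside 20.9% and 20.3% of all genes, a background that holds for each list that follows. The lower one, *Tek*, had overlapping groups and was not called without vehicle culture 1 (edgeR adjusted p = 0.115). Their summed level was 476.5 to 489.2 CPM with vehicle and 478.5 to 503.5 CPM with TGF-β1. Most of this was *Cdh5*, at 374.9 and 367.1 CPM, while *Cldn5*, a defining tight junction gene of brain endothelium, was at 0.0754 and 0.119 CPM. Of 12 macrophage and microglia markers, 1 of 9 tested was higher and the other 8 did not pass, with sums of 109.1 to 114.4 and 108.7 to 111.0 CPM. *Tmem119* made up most of it, at 102.4 and 98.4 CPM, and *C1qb* was at 0 in every culture.

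Astrocyte markers summed to 204.6 to 212.1 CPM with vehicle and 147.8 to 159.4 CPM with TGF-β1, with 2 of 7 tested higher and 3 lower. *Sox9* made up most of this sum, at 145.9 and 109.9 CPM, followed by *Slc1a2* at 38.5 and 16.3 CPM. *Aqp4*, a defining water channel, was at 0 in all vehicle cultures. Oligodendrocyte markers summed to 25.8 to 27.4 and 20.3 to 23.7 CPM, with 1 of 5 tested higher and 2 lower. Most of this was *Cnp*, at 21.6 and 15.9 CPM, and *Mag*, *Mobp*, *Olig1* and *Olig2* were at 0.0109 CPM or less with vehicle. Schwann cell markers summed to 20.4 to 22.7 CPM with vehicle and 35.8 to 37.6 CPM with TGF-β1, with 2 of 4 tested higher and 1 lower. Smooth muscle markers summed to 1090 to 1183 and 994.8 to 1030 CPM, with 2 of 10 tested higher and 4 lower, and *Acta2*, smooth muscle actin, made up most of it at 731.1 and 715.4 CPM. Of 10 choroid plexus and ependyma markers, which share *Ptgds* with the meninges, the smallest adjusted p of the 6 tested was 0.246 (*Kl*, edgeR). Their sums were 3.27 to 3.70 and 2.81 to 3.83 CPM, and *Otx2* was at 0 in every culture. *Ttr* did not pass the filter, with 11, 2, 8 and 8 counts in the vehicle cultures and 0 in every TGF-β1 culture. Its groups did not overlap, but these counts are near the detection floor. The part of these cells in the falls of *Ptgds*, *Apod* and *Scara5* was not tested.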

How the data were processed

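RNA from 8 wild-type mouse brain pericyte cultures was sequenced after a stranded total RNA preparation, per the labels. According to the submitters' processing notes and the study's methods, STAR 2.7.5c was used by the authors for alignment to mm10, SAMtools 1.15 for the removal of duplicate reads and featureCounts 2.0.3 for counting. The authors deposited raw counts for each gene, without normalization, and 1 file for each culture. The annotation release, the strand mode and how multiply assigned reads were treated are not given in the sources used here. Total counts per culture ranged from 45255235 to 47651397, and floors and errors from counts cover counting error only.

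Of 54532 Ensembl identifiers, 54495 had a symbol, and positions were taken from GENCODE M21 (GRCm38). CPM used TMM-scaled library sizes, and levels per kilobase used the union of exons. Groups came from the sample labels. All genes were fitted together with edgeR 4.0.16 in R 4.3.3 (filterByExpr, TMM, robust quasi-likelihood test, Benjamini-Hochberg adjustment over 22544 genes, threshold 0.05, prior count 0.125). The standard error was the size of the log2 fold change divided by the square root of F. The code was tested on simulated data with known changes.

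The 7 genes and all marker and family lists were chosen with earlier results of these data known. Genes named from a marker list were its 3 most abundant per kilobase with vehicle and the 3 with the largest called changes, and of a family list any measured gene. The 5 genes of most like pattern were also named. Some genes that this rule covers are not reported here. Other genes are said to have been chosen after their values were seen or are given as defining markers. Alternatives were DESeq2 1.42.0, DESeq2 size factors, library totals, upper-quartile factors, looser and stricter filters (1 count in any culture, or 10 counts in every culture), and leaving out the cultures 1 at a time. Counts per fragment, in which a count was divided by 2 and rounded up, were tried after the data were seen.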

Additional observations from a re-analysis of the deposited data

Results flagged for a closer look

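Among 136 groups of 4 cultures examined, 8 held a culture that stood apart from the other 3 by Dixon's test at the 95% level, where chance gives about 1 in 20, and 0 of the 14 groups of *Ptgds*, *Apod*, *Scara5*, *Islr*, *Dpep1*, *Pi16* and *Slc6a13* did. Culture 6 of the TGF-β1 group stood apart for *Spp1*, at 2059 CPM with the nearest culture at 1946. Vehicle culture 2 stood apart for *Ly6a*, at 159.7 CPM (nearest 170.3), and for *Colec12*, at 560.6 CPM (nearest 578.5). Vehicle culture 4 did so for *Slc6a8*, at 279.8 CPM (nearest 274.2), and vehicle culture 1 for *Nfix*, at 406.3 CPM (nearest 401.6). TGF-β1 culture 7 did so for *Slc6a6*, at 256.5 CPM (nearest 245.7). TGF-β1 culture 8 was lowest for *Gga1*, at 98.8 CPM (nearest 104.9), and for *Vill*, at 15.7 CPM (nearest 17.4). In each of these genes the treatment groups did not overlap.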

How the results depend on the processing

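Over the 15 alternatives run, the log2 fold change of *Ptgds* ranged from -3.35 to -3.16, that of *Apod* from -2.49 to -2.38 and that of *Scara5* from -3.83 to -3.56. The values of *Islr* (-0.07 to 0.03), *Dpep1* (-0.21 to 0.16) and *Pi16* (-0.07 to 0.22) changed sign with the culture left out, each by less than the spread between cultures. The median of the 6 tested genes ranged from -1.33 to -1.18 when 1 culture was left out. The number of adventitial genes called higher was 3 when only genes with at least 10 counts in every culture were tested, a filter that tests fewer low genes. The other numbers of genes called in the perivascular, meningeal, adventitial, activated and pericyte lists stayed within 1.5 times the values given. Among single genes, the edgeR calls of *Slc6a9*, *Stag2*, *Mgrn1*, *Tek*, *Sox10* and *Ncmap* were lost under at least 1 alternative (*Tek* without vehicle culture 1, *Ncmap* without vehicle culture 3, and *Sox10* with DESeq2 or without vehicle culture 1, 3 or 4 or TGF-β1 culture 6 or 8), so the small counts of the endothelial, Schwann cell and oligodendrocyte lists rest on them. Of those not called, *Apom* passed without TGF-β1 culture 5 (adjusted p = 0.0396), *Cd68* without TGF-β1 culture 8 and *Tmem119* with library totals only, and the cause was not tested. Scaling moved the median of all genes by less than 0.1 on the log2 scale. No paired analysis was possible because the labels give the groups no shared replicate numbers. Depth limits *Slc6a13*, *Dpep1* and *Pi16* most, at 0 to 60 counts a culture.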
